A study of Mus musculus with 4 samples.

Results

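Glucose transport and glycolysis are described here through 10 genes, Slc2a1, Slc2a3, Hk2, Pfkl, Aldoa, Gapdh, Eno1, Pkm, Ldha and Ldhb, out of 20171 genes in the gene table. They were chosen by symbol, one or a few for each part of the route from glucose uptake to lactate, and all 10 were present. RNA of individual mouse cells was amplified as full-length cDNA, tagged by cell barcode and unique molecular identifier (UMI), and sequenced on PacBio instruments. Females of strain C57BL/6J, 6 to 8 weeks old, were injected with pregnant mare's serum gonadotropin, then with hCG, and mated with DBA/2NCrl males. The sample labels give the strain as DBA/2J x C57BL/6J, and no group carried a transgene or, beyond these hormones, a drug. MII oocytes were taken from unmated females at 20 h after hCG, zygotes at 22 to 24 h, early 2-cell (E2C) embryos at 30 to 32 h and late 2-cell (L2C) embryos at 46 to 48 h. The 4-cell embryos followed at 54 to 56 h, 8-cell embryos at 68 to 70 h, 16-cell and 32-cell embryos at 78 to 80 h and early blastocysts at 88 to 90 h. Mouse embryonic stem cells (mESC) of the E14 Tg2A line, cultured on gelatin, were read alongside. They are a single line, so their cells are no replicates of one another.

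The gene table held 161 cells. For 121 of them the column name holds an embryo number, which gave 43 replicates. There were 10 oocytes and 9 zygotes, whose runs were taken from the paper's cell list. The runs of the later embryos were not known, so from E2C on stage and run cannot be told apart. Of the 2-cell stage there were 5 early and 6 late embryos, and beyond it 5 embryos of 4 cells, 4 of 8 cells and 4 of 16 cells. The other 40 cells (22 of 32-cell embryos, 13 of blastocysts and 5 mESC) name no embryo and were described by their range and median, with no test. Depth ran from 4985 to 389775 UMIs per cell. A value is given in copies per 100,000 UMIs of a cell, averaged over the cells of an embryo. It is a share of the RNA read and says nothing of the absolute amount, so a fall in a transcript and a rise of all other RNA cannot be told apart. A single UMI was worth 0.391 to 0.6 copies in an oocyte and a median of 3.08 copies in a 16-cell blastomere, so a low gene could be followed less finely in later cells. Of the markers fixed for each cell type, the sum of 5 oocyte markers was 542.9 to 1023 copies in the oocytes. The 6 cumulus and granulosa markers summed to at most 1.67 copies there and to at most 6.2 in the zygotes. L2C embryo 1 was a single cell of 17971 UMIs, in which 1 UMI was worth 5.56 copies, so its values of 5.56 and 11.1 copies below are 1 and 2 UMIs. 8-cell embryo 3 was 3 cells with 43857 UMIs in all, where a value of 1.59 copies was 1 UMI.

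Cells take up glucose by facilitated transport through the GLUT proteins, of which Slc2a1 encodes GLUT1 and Slc2a3 GLUT3. Hexokinase traps it as glucose 6-phosphate, phosphofructokinase commits it to glycolysis, and aldolase, glyceraldehyde 3-phosphate dehydrogenase, enolase and pyruvate kinase carry it on to pyruvate, which lactate dehydrogenase interconverts with lactate. The cleavage-stage mouse embryo is known to depend on pyruvate and lactate first, and to use glucose from about the morula stage onwards.

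Stages were compared with limma on log2(copies + 1), in a single fit over all genes, and a gene was called where the log2 fold change exceeded 1 in size and the unadjusted p was under 0.01. Of the 10 genes, 9 passed the filter of 1 copy in at least 4 embryos and were tested among 11682 genes, and Gapdh did not. From oocyte to zygote 1 member was called higher and none lower, where 3.24% of all genes were called, 2.92% higher and 0.325% lower. From zygote to E2C 2 were called higher, against 7.27% of all genes (4.52% higher and 2.75% lower). From E2C to L2C, when the embryonic genome is switched on, 1 was called higher and 1 lower, while 48.4% of all genes were called (25.6% higher and 22.8% lower). None of the 9 was called from L2C to 4-cell, where 6.69% of all genes were (2.41% higher and 4.28% lower), and 0 had an unadjusted limma p under 0.05. At that step edgeR and DESeq2 called 0 of the 5 members that passed their filter. Fitted without array weights, limma called Slc2a1 (log2 fold change -1.21) and Eno1 (-1.27) lower there, against 10.1% of all genes in either direction. From 4-cell to 8-cell 1 was called lower, against 15.0% of all genes (4.47% higher and 10.5% lower). From 8-cell to 16-cell 1 was called higher, against 3.36% of all genes (1.90% higher and 1.46% lower). Over the whole span from oocyte to 16-cell 5 were called higher and 1 lower, against 50.8% of all genes (26.8% higher and 24.0% lower). The median log2 fold change over that span was 1.13 for the 9 tested members and 0.04 for all genes tested.

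**Figure D1:**
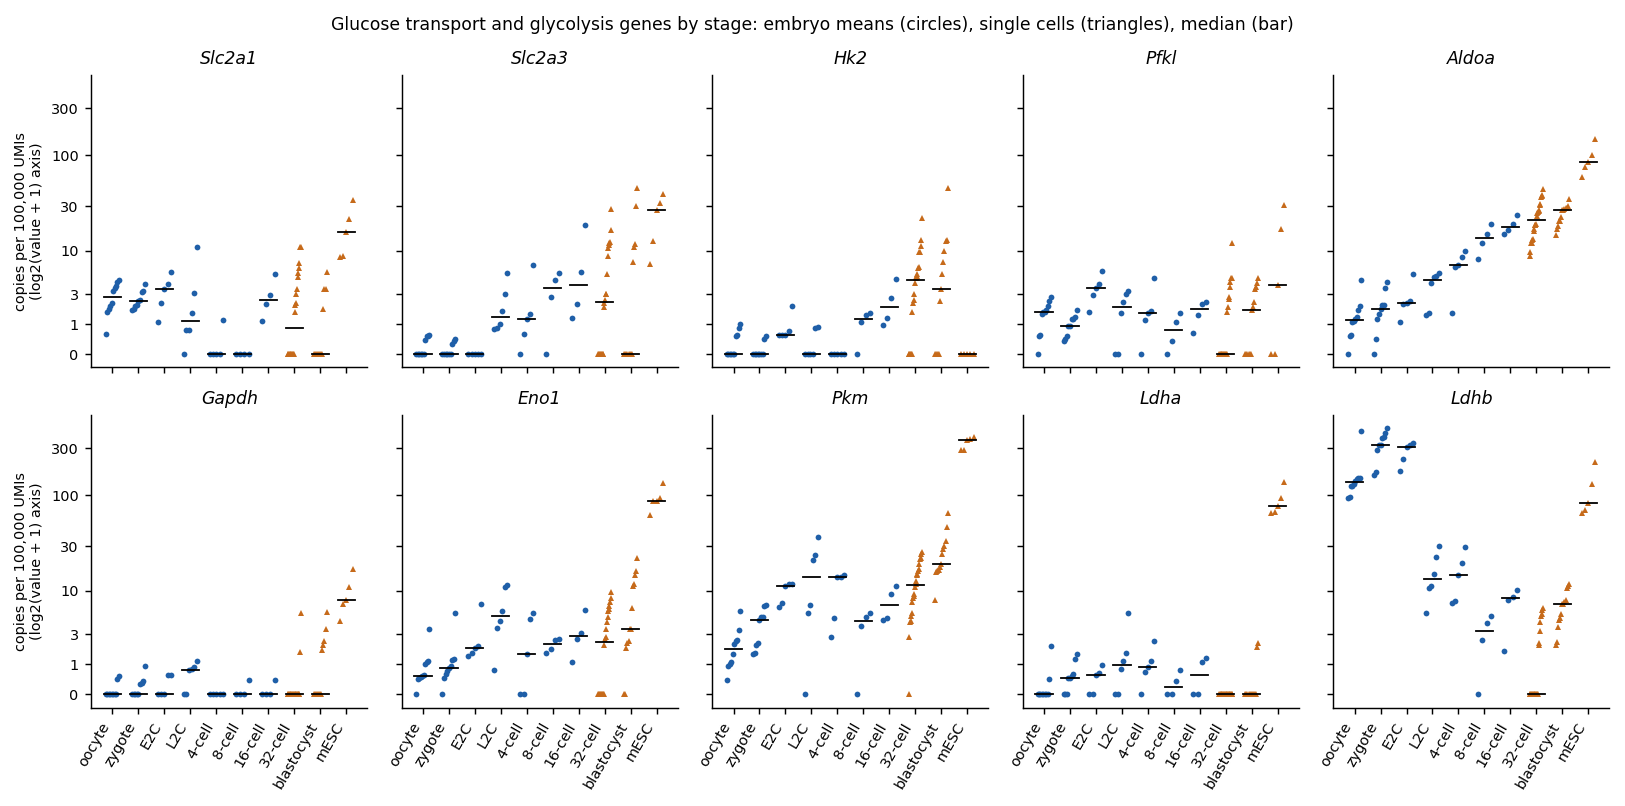
Copies per 100,000 UMIs of each of the 10 genes (vertical axis) by stage (horizontal axis), with a point for each embryo, or for each cell at the 32-cell, blastocyst and mESC stages. Points within a stage are drawn in order of value and their sideways position has no meaning. Ldhb stands at 93.7 copies or more in every oocyte, zygote and E2C embryo and at 29.8 or less in every later embryo, while Aldoa climbs to between 15.3 and 24.1 copies in 16-cell embryos.

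The glucose transporters were low in eggs and went different ways. Slc2a1 (chr4:119108711-119137983, plus strand, mm10) stood at a median of 2.79 copies in the oocytes, with a range of 0.6 to 4.57. The zygotes ranged from 1.8 to 4.09 with a median of 2.43. The E2C embryos gave 5.78, 2.29, 4.14, 3.58 and 1.09 copies. These first stages overlapped throughout. The L2C embryos ranged from 0 to 11.1 with a median of 1.15, and the highest value was 2 UMIs in the single cell of embryo 1. Among 4-cell embryos the gene was seen in 1 of 5, at 1.19 copies, and no UMI was found in any of the 4 8-cell embryos, where 3 UMIs in the pooled 784516 would be 0.382 copies. The gene was back in all 4 16-cell embryos, at 1.17, 2.91, 2.19 and 5.36 copies. The 16-cell mean over embryos was 7.61 times that limit, which is taken over pooled UMIs, so the ratio is rough and no lower bound. The log2 fold change from 8-cell to 16-cell was 1.58 (SE 0.41) on the log2(copies + 1) scale, with a limma adjusted p of 0.0318. With a pseudocount of 5 it was 0.50 and was not called. The step from E2C to L2C, with a log2 fold change of -1.04, was not called, but it was without L2C embryo 1 (-1.17) and without E2C embryo 5 (-1.21). Without array weights the step from L2C to 4-cell was called lower (-1.21).

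Slc2a3, which encodes the transporter of high affinity GLUT3 (chr6:122727809-122801640, minus strand), was hardly seen before genome activation. The oocytes ranged from 0 to 0.553 copies and the zygotes from 0 to 0.406, both with a median of 0, and the 5 E2C embryos had none. Every L2C embryo had it, from 0.79 to 5.56 copies with a median of 1.36, so the groups did not overlap. The highest value was 1 UMI in embryo 1, and the others reached 3.08 copies. In embryo order the L2C values came from 1, 1, 1, 1, 2 and 4 UMIs. The oocytes and zygotes that had the gene also held 1 UMI each, in deeper cells. For most L2C embryos the gap to those eggs is thus 1 UMI against 1 UMI. The step had a log2 fold change of 1.33 (SE 0.39, limma adjusted p = 0.00282). With a pseudocount of 5 the change was 0.41 and was not called. The L2C mean over embryos was 6.11 times the limit of 0.354 copies that the pooled E2C UMIs allow, or 4.19 times without L2C embryo 1. This ratio too is rough. The 4-cell embryos gave 6.93, 0, 1.52, 1.26 and 0.598 copies and the 8-cell embryos 2.73, 4.56, 0 and 5.58, which overlapped. The 16-cell embryos gave 5.69, 19.2, 2.19 and 1.3 copies, and all 4 stood above every oocyte. From oocyte to 16-cell the log2 fold change was 2.44 (SE 0.31, limma adjusted p = 5.08e-10).

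Most of the 16-cell mean of Slc2a3 came from a single embryo. In 16-cell embryo 2 all 15 cells had a UMI, from 2.58 to 49.3 copies, whereas in embryos 3 and 4 only 1 cell each had one, of 7 and 5 cells read. Within 16-cell embryo 1 it was found in 9 of 11 cells. The cells of embryo 3 held 6934 to 14488 UMIs and those of embryo 4 held 9237 to 31843, against 14513 to 60831 in embryo 2. A low level could therefore be missed more easily in embryos 3 and 4.

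Hk2 encodes hexokinase 2, which phosphorylates glucose (chr6:82725025-82774454, minus strand). It was near 0 in the early stages, with 0 to 1.03 copies in the oocytes and 0 to 0.515 in the zygotes. The E2C embryos gave 0.547, 0.71, 2.04, 0.551 and 0.543 copies, from 1, 1, 4, 1 and 1 UMIs. All stood above every zygote, but the highest zygotes, at 0.515 and 0.423 copies, also held 1 UMI each, in deeper cells. Apart from E2C embryo 3 the gap is thus 1 UMI against 1 UMI. The log2 fold change from zygote to E2C, 0.76, stayed under the limit. The L2C embryos ranged from 0 to 0.875 copies, and none of the 5 4-cell embryos had a UMI, which allows up to 0.572 copies. It came back in 3 of 4 8-cell embryos, at 1.09, 1.59 and 1.46 copies. The 16-cell embryos gave 2.65, 4.78, 0.986 and 1.3 copies. Only the span from oocyte to 16-cell passed, with a log2 fold change of 1.48 (SE 0.25, limma adjusted p = 5.53e-07), and there the lowest 16-cell embryo overlapped the highest oocyte. With a pseudocount of 5 the change was 0.51 and was not called. The other widespread hexokinase, Hk1, had a mean of 0 in oocytes and in zygotes and 4.97 ± 2.94 copies (SD, n = 4) in the 8-cell embryos.

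Pfkl encodes the liver-type subunit of phosphofructokinase (chr10:77986947-78010083, minus strand). It rose from a zygote range of 0.361 to 1.8 copies to 3.6, 5.84, 2.91, 4.07 and 1.63 in the E2C embryos, with only the lowest of the 5 inside the zygote range. The log2 fold change was 1.26 (SE 0.31, limma adjusted p = 0.003), and 0.54, not called, with a pseudocount of 5. No later step passed, and the 16-cell embryos at 1.46, 2.37, 2.19 and 0.628 copies lay within the oocyte range of 0 to 2.78. The muscle- and platelet-type genes Pfkm and Pfkp had stage means of at most 0.449 copies in embryos.

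Aldoa, the aldolase of most tissues (chr7:126795234-126800751, minus strand), had the widest span of the rising members. The oocytes ranged from 0 to 4.57 copies with a median of 1.21, the zygotes from 0 to 4.34 with a median of 1.83, and the L2C embryos from 1.47 to 5.56 with a median of 4.56. The E2C embryos gave 5.45, 2.29, 1.09, 2.41 and 2.17 copies and the 4-cell embryos 6.58, 10, 1.58, 8.59 and 6.84. The 8-cell embryos gave 15.3, 8.12, 19.5 and 12.1 copies, and the 16-cell embryos 19.3, 24.1, 16.8 and 15.3. Neighbouring stages overlapped at every step and no single step was called by limma. On the recovered UMIs, both edgeR (log2 fold change 1.38) and DESeq2 (1.33) called the step from 4-cell to 8-cell. From oocyte to 16-cell the groups did not overlap and the log2 fold change was 3.19 (SE 0.36, limma adjusted p = 9.43e-12). That call was kept in all 28 alternatives tried, with values between 1.92 and 4.11.

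Eno1 encodes enolase 1 (chr4:150236721-150248879, plus strand). Its zygote median was 0.847 copies and its L2C median 5.18, with L2C embryos from 0.736 to 11.6. The 4-cell embryos gave 0, 0, 1.52, 4.77 and 5.53 copies, the 8-cell embryos 2.51, 2.58, 1.59 and 1.87, and the 16-cell embryos 2.62, 6.03, 1.1 and 3.16. No adjacent step was called, but without array weights the step from L2C to 4-cell was called lower (-1.27). From oocyte to 16-cell the log2 fold change was 1.13 (SE 0.39, limma adjusted p = 0.0101), but 7 of 28 alternatives did not call it. Eno1b, a copy 99.5% identical to Eno1 over its aligned length, was counted as a gene of its own, so reads of either may be split. Eno1b was at or below 0.743 copies on average in every embryo stage and at a mean of 381.1 in mESC, against 93 copies for Eno1 in the same cells.

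Gapdh, the textbook reference gene (chr6:125161715-125166467, minus strand), was almost missing from the gene table. Its highest embryo mean of any stage was 0.596 copies, in the L2C embryos, and the 5 4-cell embryos had no UMI. In mESC it was present in all 5 cells at 4.4 to 17.2 copies. GENCODE lists 8 other loci with a transcript at least 90% identical to it over at least 80% of its length, of which 2 are in the table, so its reads could be split or dropped and its level is uncertain. In the 4 intact oocytes of run 4, counted by isoform, it stood at 1.64 to 3.55 copies, so the level differed between runs in the same kind of cell.

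Pyruvate kinase, encoded by Pkm (chr9:59656368-59679375, plus strand), comes in a pair of splice forms that take one or the other of neighbouring exons. M1 is known from adult muscle and brain and M2 from embryonic and dividing cells. Both exons are shown from the GENCODE M21 transcripts (GRCm38, the same coordinates as mm10), with capitals at the bases where they differ. M1 is at chr9:59675029-59675195 and M2 at chr9:59675568-59675734.
Pkm M1 exon: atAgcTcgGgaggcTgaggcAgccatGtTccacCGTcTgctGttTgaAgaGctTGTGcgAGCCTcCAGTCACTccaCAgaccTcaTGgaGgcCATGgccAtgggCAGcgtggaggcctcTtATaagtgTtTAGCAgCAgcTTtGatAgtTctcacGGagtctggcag
Pkm M2 exon: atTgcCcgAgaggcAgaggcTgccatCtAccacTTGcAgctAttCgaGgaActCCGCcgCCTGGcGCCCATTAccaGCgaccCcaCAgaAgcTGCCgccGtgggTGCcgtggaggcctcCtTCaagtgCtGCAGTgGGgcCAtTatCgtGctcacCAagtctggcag
Each exon has 167 bases, of which 103 are the same in both (61.7%) and 64 differ.

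Pkm itself was higher in early embryos than in eggs. The oocytes ranged from 0.391 to 5.83 copies with a median of 1.88, the zygotes from 1.54 to 6.95 with a median of 4.54, and the E2C embryos gave 12, 11.8, 7.27, 11.4 and 6.48. The step from zygote to E2C had a log2 fold change of 1.15 (SE 0.36, limma adjusted p = 0.0203), but edgeR on the recovered UMIs did not call it, and pseudocounts of 0.1 and 5 and no array weights did not either. L2C embryos ranged from 0 to 37.4 copies with a median of 14.2, and 4-cell embryos gave 2.77, 4.9, 14.8, 14 and 14. The 8-cell embryos gave 3.84, 5.04, 0 and 5.55 copies and the 16-cell embryos 4.56, 11.2, 4.82 and 9.16. From oocyte to 16-cell the log2 fold change was 1.42 (SE 0.39, limma adjusted p = 0.00124). It was not called with a pseudocount of 5 (0.72) or with DESeq2 (1.33).

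The isoform table placed Pkm UMIs almost wholly on the M2 exon. Of 750 UMIs in isoforms with exactly one of the exons, 24 carried M1, or 3.2% (exact 95% interval 2.06 to 4.72%, counting error only). They came from 1 isoform and 17 cells, while 10 isoforms carried M2. A further 61 UMIs were of an isoform that reads only the end of the gene and shows neither exon. By stage the M1 share was 0 of 21 UMIs in oocytes, which allows up to 14.3%. It was 4 of 38 in zygotes (10.5%, exact interval 2.94 to 24.8%) and 2 of 32 in E2C (6.25%, 0.766 to 20.8%). In L2C it was 4 of 81 (4.94%, 1.36 to 12.2%), and in 4-cell embryos 2 of 49 (4.08%, 0.498 to 14%). None of 27 UMIs in 8-cell embryos and none of 45 in 16-cell embryos carried it, which allow up to 11.1% and 6.67%. The mESC had 9 of 316 (2.85%, 1.31 to 5.34%). The intervals of all stages overlapped. The M1 isoform spans the whole gene, while the M2 count includes isoforms that lack its start. Among full splice matches alone the M1 share was 4 of 21 UMIs in zygotes (19%, exact interval 5.45 to 41.9%), 2 of 14 in E2C (14.3%, 1.78 to 42.8%) and 4 of 51 in L2C (7.84%, 2.18 to 18.9%). It was 9 of 285 in mESC (3.16%, 1.45 to 5.91%) and 24 of 552 over all cells (4.35%, 2.81 to 6.4%). An exact two-sided permutation test was run at the 3 steps with at least 3 embryos of 5 or more such UMIs on either side. These were E2C to L2C, L2C to 4-cell and 4-cell to 8-cell, with adjusted p of 0.857 to 0.914, and 3 against 3 embryos cannot go below 0.1. The other steps, oocyte to zygote among them, had too few such embryos. With no lower limit of UMIs, the mean share went from 0 in oocytes to 8.64% in zygotes (n = 9 each). The permutation p there was 0.0824 and the adjusted p 0.494. No shift between the exons was detectable in the steps tested, at this depth.

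**Figure D2:**
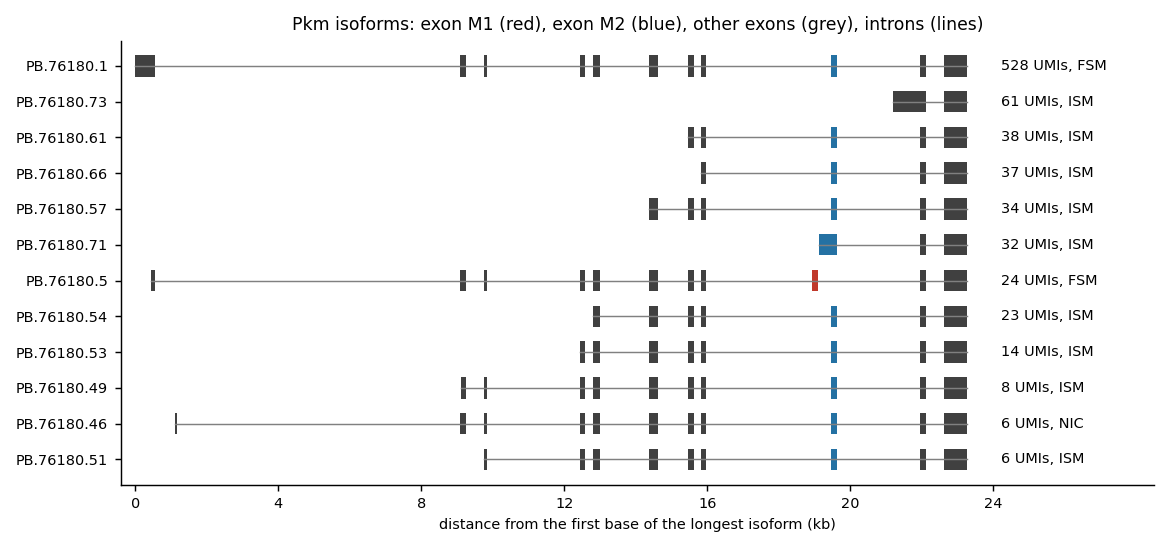
Pkm isoforms of the deposited annotation drawn as exon boxes along the gene, by distance in kb from the first base of the longest isoform, with the M1 exon in red and the M2 exon in blue. The UMIs of each isoform over all 161 cells are at the right. The leading isoform holds 528 UMIs and carries M2, and a single isoform, with 24 UMIs, carries M1.

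Lactate dehydrogenase is a tetramer of subunits made from Ldha, the muscle type that favours lactate production, and Ldhb, the heart type, and the egg is known for the latter. Ldhb (chr6:142490249-142507957, minus strand) was high in eggs. The oocytes ranged from 93.7 to 447.4 copies with a median of 135.6, and the zygotes from 159.3 to 479.9 with a median of 320.9. The log2 fold change from oocyte to zygote was 1.20 (SE 0.22, limma adjusted p = 5.13e-05). The groups overlapped because of oocyte 6, the only oocyte of run 2, at 447.4 copies, while the next highest stood at 150.1. Within run 1, 5 oocytes averaged 129.1 copies and 4 zygotes 355.1, with no overlap. Within run 3, 4 oocytes averaged 126.5 and 3 zygotes 216.5, again without overlap (148.1 against 159.3). Within run 2, the 1 oocyte had 447.4 copies and the 2 zygotes averaged 434.9, so the rise was not seen there. With the run as a covariate among oocytes and zygotes alone the log2 fold change was 0.98, and with DESeq2 on the recovered UMIs 0.95, both just under the fold limit.

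The E2C embryos still held 304.2, 234.6, 177.3, 325.3 and 338.1 copies of Ldhb. In the L2C embryos, 46 to 48 h after hCG, it had dropped to 5.56 to 29.8 copies with a median of 13.3, without overlap. This was the largest change of any member at an adjacent step, a log2 fold change of -4.02 (SE 0.41, limma adjusted p = 9.67e-13). The 4-cell embryos gave 19.9, 14.9, 29.3, 7.75 and 7.34 copies, overlapping L2C. The 8-cell embryos gave 5.06, 2.53, 0 and 4.16, again below every 4-cell embryo (log2 fold change -1.55, SE 0.44, limma adjusted p = 0.00895). The 16-cell embryos gave 10.1, 1.72, 8.6 and 7.98 copies, which overlapped the 8-cell embryos. From oocyte to 16-cell the log2 fold change was -4.13 (SE 0.33, limma adjusted p = 2.02e-17).

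Ldha (chr7:46841475-46855627, plus strand) was nearly absent from all embryo stages. The oocytes ranged from 0 to 2.03 copies, the zygotes from 0 to 1.55 and the L2C embryos from 0 to 5.56, the last being 1 UMI. The E2C embryos gave 0.652, 0, 0, 0.965 and 0.543 copies, the 4-cell embryos 0.858, 2.45, 0, 1.17 and 0.685, the 8-cell embryos 0, 0.366, 0 and 0.753, and the 16-cell embryos 0, 0, 1.1 and 1.3. No step was called, and 0 UMIs in the 22 cells of 32-cell embryos allow at most 0.393 copies. In mESC it stood at 65.5 to 136.4 copies in all 5 cells.

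The shift between the genes was read as the Ldha share of the Ldha and Ldhb UMIs. It was 0.148% in the pooled oocytes (exact interval 0.0482 to 0.346%), where 4 of the 5 Ldha UMIs were of oocyte 7, and 0.0324% without that oocyte. It was 0.178% in zygotes (0.0972 to 0.298%) and 0.174% in E2C (0.0474 to 0.445%). It was 4.55% in L2C (1.49 to 10.3%), 6.85% in 4-cell (2.26 to 15.3%), 6.25% in 8-cell (0.766 to 20.8%) and 2.9% in 16-cell embryos (0.353 to 10.1%), from 2 to 5 Ldha UMIs a stage. The 32-cell cells had 0 of 11 UMIs, which allows up to 27.3%, and the blastocyst cells 4.65% (0.568 to 15.8%). In mESC the share was 45.8% (38.8 to 52.9%), from 26.2 to 66% by cell. The increase of the share at L2C came with a fall of Ldhb and few Ldha UMIs, not with a called rise of Ldha.

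Between embryos, the mean share was 0.151 ± 0.144% (SD, n = 5) in E2C and 11.6 ± 19.4% (n = 6) in L2C. The exact two-sided permutation test gave p = 0.0909, adjusted p = 0.545 over 6 steps, and all other steps an adjusted p of 1. L2C embryo 1 had 1 Ldha and 1 Ldhb UMI, a share of 50%, and without it the difference was 3.72 in place of 11.4 percentage points. As a log2 ratio of (Ldha + 1) to (Ldhb + 1), an alternative, the step gave a difference of 4.71 with an adjusted p of 0.026.

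**Figure D3:**
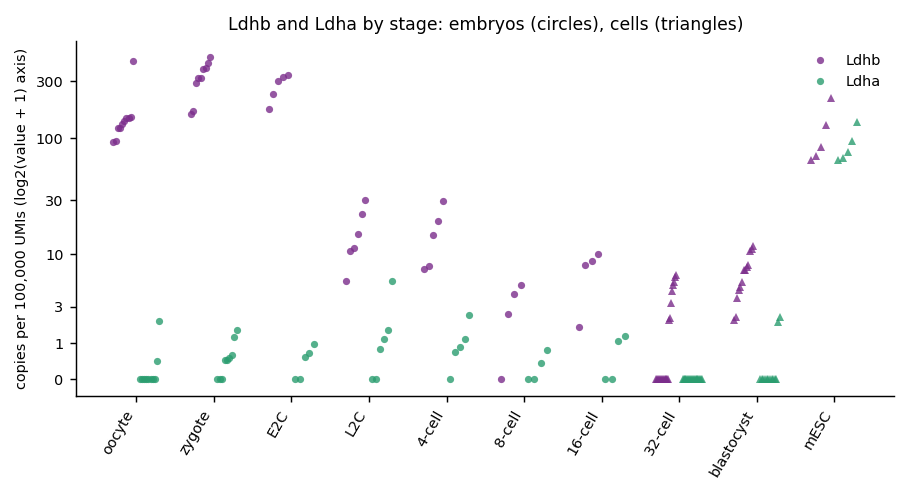
Copies per 100,000 UMIs of Ldhb and of Ldha by stage, with a point for each embryo or, at the 32-cell, blastocyst and mESC stages, each cell. Points within a stage are drawn in order of value. Ldhb falls between E2C and L2C, and Ldha stays at 5.56 copies or less in every embryo. The Ldha share of their UMIs, which is not drawn, is 26.2 to 66% in the mESC. The share of 50% at L2C is 1 of 2 UMIs, and single blastocyst cells reach up to 33.3%.

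The genes with the course most like that of Ldhb over the means of the 10 stages on the log2 scale were Hmces (Pearson r = 0.985), Adk (0.979) and Gstm5 (0.968), among 11681 genes compared. For Ldha they were Sparc (0.980), AA465934 (0.978) and Eno1b (0.977), all of them highest in mESC. For Slc2a1 they were Xpc (0.928), Adprm (0.915) and Oxr1 (0.907). The correlations run over 10 points only, which share cells and depth, and are a description.

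Read in full length, the RNA of the genes could be split by isoform, named here by the deposited identifiers. The classes compare with GENCODE: a full splice match has all the junctions of an annotated transcript, an incomplete splice match a run of them, and the other classes known splice sites in an unannotated combination, or unannotated sites. Members had 0 (Hk2) to 23 (Ldhb) isoforms, and 30 passed the filter among 29409 tested. At adjacent steps 17 were called. From oocyte to zygote 3 were called, where 1.48% of all isoforms were. From zygote to E2C 0 were called by limma, with 1 at an unadjusted p under 0.05, against 5.18% of all isoforms. From E2C to L2C 9 were called, all of them Ldhb and all lower (26.0% of all isoforms called in either direction, 13.1% lower). From L2C to 4-cell 1 was called, of Pkm (4.29% of all), from 4-cell to 8-cell 2 (7.93%), and from 8-cell to 16-cell 2 (1.97%). No member changed the shares of its isoforms past the test of isoform switching, in 1 step tested for Slc2a1 and Eno1 each, 2 for Aldoa and 4 each for Pkm and Ldhb. Of the 143 isoform shares tested by limma over these steps, 4 had an unadjusted p under 0.05. Switches were called in 0.219% of genes from oocyte to zygote, 4.09% from zygote to E2C and 21.3% from E2C to L2C, and in 0.835%, 2.24% and 0.843% of genes at the later steps.

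Isoform copies are not on the scale of gene copies, because isoform UMIs were 69.4% of gene UMIs over all genes and 90.2% for Ldhb. An isoform can thus show more copies than its gene, and isoform copies are compared between stages only. Among the other members the share ran from 0% for Hk2 (0 of 148 UMIs) and 16.9% for Slc2a3 (54 of 319) to 82.8% for Aldoa. The gene-level changes of Hk2 and Slc2a3 could therefore hardly be followed by isoform. The full splice match of Ldhb, PB.64673.4, carried 10198 UMIs and followed the course of the gene. It went from 166.3 copies in oocytes to 350.8 in zygotes, 287.6 in E2C and 15.6 in L2C embryos. From 4-cell to 8-cell its mean fell from 15.4 to 2.14 copies (log2 fold change -1.89, SE 0.46, limma adjusted p = 0.00421), and from 8-cell to 16-cell it passed the unadjusted limit in the other direction, to 6.93 copies, with an adjusted p of 0.159. The incomplete splice matches of Ldhb, which lack the start of the gene, moved with it from E2C to L2C. For instance PB.64673.12 went from 18.4 to 0.923 copies (log2 fold change -3.63, SE 0.47). The share of Ldhb UMIs that read the first junction of the leading isoform was 76 to 95.3% by stage, and that of Pkm 26.7 to 89.6%.

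A second Ldhb form lacked exon 7 of 8. It is shown as the last 30 bases of exon 6 joined to the first 30 of the next exon, in capitals, from the GENCODE transcript, whose exon 6 ends at chr6:142494100 and whose exon 7 spans chr6:142492493-142492616.
Ldhb exons 6 and 7: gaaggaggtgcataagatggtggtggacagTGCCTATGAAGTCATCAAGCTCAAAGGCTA
Ldhb exons 6 and 8: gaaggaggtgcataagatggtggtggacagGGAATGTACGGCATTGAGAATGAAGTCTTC
Exon 7 has 124 bases, 1 more than a multiple of 3, and in the annotated transcript the frame without it reads 259 codons to a stop in place of 334. The main isoform without it, PB.64673.9, had 436 UMIs and also followed the gene, with 6.83 copies in oocytes and 15.3 in zygotes (log2 fold change 1.38, SE 0.27, limma adjusted p = 0.000603), 11.1 in E2C and 0.513 in L2C embryos. Of the UMIs that read both sides of the exon, 3.91% skipped it in oocytes (exact interval 3.24 to 4.67%), 4.03% in zygotes (3.58 to 4.51%) and 3.67% in E2C (2.88 to 4.61%). The L2C to 16-cell embryos held few such UMIs and gave 1.56 to 4.17%. In mESC 9 UMIs skipped it and 97 kept it, 8.49% (3.96 to 15.5%). The intervals of oocytes, zygotes and E2C embryos overlapped.

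Among the later cells, Slc2a3 and Hk2 were not spread evenly. In the 32-cell cells Slc2a3 ranged from 0 to 28.3 copies with a median of 2.36 and was found in 13 of 22 cells. In the blastocyst cells it was found in 5 of 13, with a median of 0 and a highest value of 46.7. These were the 5 cells with the highest sums of the trophectoderm markers Cdx2, Krt8, Krt18 and Gata3 (201.4 to 406.3 copies), and they held all 47 UMIs of Slc2a3, at 7.53 to 46.7 copies. The other 8 cells had marker sums of 4.22 to 62.2 copies and none, which allows up to 0.764 copies over their pooled UMIs. Hk2 stood at 5.49 to 45.7 copies in the 5 cells and at 0 to 7.54 in the 8, of which 3 had a UMI. Slc2a1 had no UMI in the 5 cells, which allows up to 1.41 copies over their pooled UMIs. It was above 0 in 4 of the 8 cells, with 8 UMIs in all and a median of 0.93 copies over the 8. That median lies under the limit, so these counts cannot show a difference. Aldoa was alike in both groups of cells, with medians of 22.9 and 27.9 copies. Eno1 had a median of 14.9 copies in the 5 cells (2.29 to 22.6) and 2.99 in the 8 (0 to 11.2). For Pkm the median was lower in the 5 cells, 17 against 27.4 copies, again with overlapping ranges. The 2 UMIs of Ldha were both in the 5 cells. This split was seen after the values, the cells name no embryo and are no replicates, and so no test was made. Depth was of the same order, at 18215 to 53110 UMIs in the 5 cells and 41022 to 56493 in the 8. In the 32-cell cells Slc2a3 was found in 8 of the 11 cells with higher sums and in 5 of the 11 with lower ones. Hk2 was found there in 9 and in 7 of 11, but its highest values, 22.3 and 13 copies, were in cells with a marker sum of 0.

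**Figure D4:**
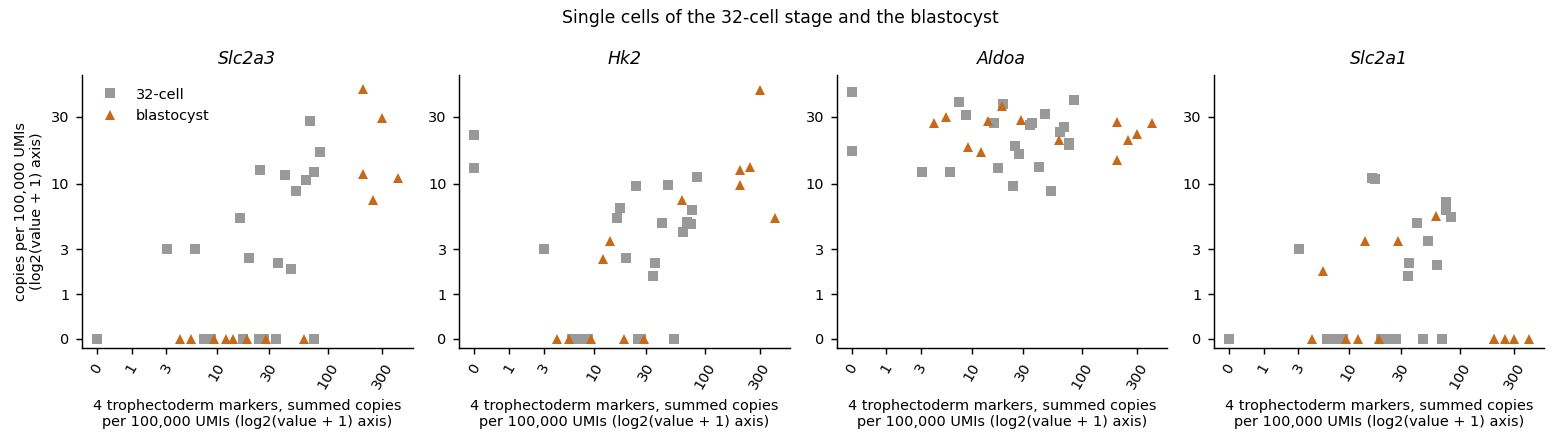
Slc2a3, Hk2, Aldoa and Slc2a1 (vertical axes, copies per 100,000 UMIs) against the summed copies of 4 trophectoderm markers (horizontal axis) in each 32-cell and blastocyst cell. The 5 blastocyst cells at marker sums of 201.4 to 406.3 hold all the blastocyst UMIs of Slc2a3, and Aldoa is above 0 in all 13 blastocyst cells.

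The mESC were set beside the blastocyst cells, and for the next 6 genes the ranges did not overlap. The share of all genes that separate in the same way was not computed, so this count is not read as a trait of these genes. Pkm stood at 284.0 to 387.2 copies in the 5 cells, against 7.9 to 65.3 in the 13 blastocyst cells. Aldoa stood at 59.9 to 147.2 copies against 14.9 to 35.9, Ldhb at 65.5 to 217.3 against 2.11 to 12, and Slc2a1 at 8.61 to 35 against 0 to 5.66. Eno1 stood at 63.1 to 133.4 copies against 0 to 22.6, and Ldha at 65.5 to 136.4 against 0 to 2.29. Slc2a3, Hk2, Pfkl and Gapdh overlapped. Set beside the earlier stages, the mESC range of Ldhb overlapped that of oocytes, zygotes and E2C embryos, and that of Slc2a1 the L2C embryos and the 32-cell cells. Hk2 was the one member with no UMI in mESC, where 3 UMIs in the 103590 read would be 2.9 copies, whereas it reached 45.7 copies in the blastocyst cells. The mESC are a cultured line and stage and culture cannot be told apart.

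Run 4 held oocytes cut into pieces, with 4 intact oocytes, 6 pieces of 1/2 and 6 of 1/4 of an oocyte. Ldhb stood at 100.8 to 147.3 copies in the intact oocytes, at 104.2 to 144.6 in the halved and at 83.1 to 134.1 in the quartered ones, so the highest was at most 1.61 times the lowest of a kind. The isoform table of run 4 lists no isoform of Slc2a3 or Hk2, so neither could be measured there. Pkm, with 18 UMIs in the intact oocytes, ranged from 0 to 6.65 copies. Its coefficient of variation was 153.9% in the intact, 83.8% in the halved and 36.4% in the quartered oocytes, against 16.7%, 10.8% and 15.4% for Ldhb.

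The rest of the pathway was read from 6 lists, chosen with earlier results of these data known. Of 20 other glycolysis enzymes, 18 were in the table and 9 were tested, and from E2C to L2C 2 were higher and 1 lower. At that step 48.4% of all genes were called (25.6% higher and 22.8% lower), which is the background of every list below. The largest was Bpgm, bisphosphoglycerate mutase, which fell from 413.5 ± 62 copies in oocytes (SD, n = 10) to 172.1 ± 43.7 in E2C, 18.3 ± 10.5 in L2C and 22.1 ± 15.1 in 16-cell embryos (oocyte to 16-cell log2 fold change -4.40, SE 0.31, limma adjusted p = 1.2e-19). Pgam1, phosphoglycerate mutase, went the other way, from 2.25 ± 0.736 copies in E2C to 22.5 ± 12.3 in L2C (log2 fold change 2.81, SE 0.46, limma adjusted p = 4.23e-07). Over the whole span 4 of the 9 were higher and 2 lower, where 50.8% of all genes were called (26.8% higher and 24.0% lower).

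Of 11 other glucose transporters, 9 were in the table and 4 were tested, of which 1, Slc2a8, was called over the whole span, against 50.8% of all genes. It had no UMI in the oocytes and 10 ± 0.655 copies (SD, n = 4) in the 16-cell embryos. That mean over embryos was 67.6 times the limit of 0.148 copies that the pooled UMIs of the 10 oocytes allow. For lactate and pyruvate handling, 16 of 22 genes were tested and 5 were higher and 3 lower from E2C to L2C, a share near the 48.4% of all genes. Mpc2, a subunit of the mitochondrial pyruvate carrier, went from 3.37 ± 2.78 to 54.5 ± 27.6 copies (log2 fold change 3.99, SE 0.38). Dlat, the acetyltransferase of pyruvate dehydrogenase, fell from 10.7 ± 1.26 to 1.33 ± 2.18. Bsg, the partner protein of monocarboxylate transporters, rose from 11.8 ± 5.07 copies in 4-cell to 36.1 ± 9.49 in 8-cell embryos (log2 fold change 1.46, SE 0.37).

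The pentose phosphate list had 8 of 10 genes tested, with 4 higher and 3 lower from E2C to L2C (48.4% of all genes called). G6pdx, which feeds glucose into that pathway, climbed from 2.99 ± 5.22 copies in oocytes to 16.3 ± 8.67 in zygotes and 51 ± 4.17 in E2C and then fell to 4.34 ± 6.15 in L2C embryos. All 3 of these steps were called. Of 10 regulators, 8 were tested, and 3 rose and 3 fell from E2C to L2C (48.4% of all genes called). Hif1a, the oxygen-sensitive transcription factor, fell from 13.9 ± 3.08 to 0.704 ± 0.981 copies, and Tigar, a regulator that lowers glycolytic flux, rose from 6.12 ± 1.75 to 35.8 ± 8.9. Of 18 genes of gluconeogenesis and glycogen, 12 were tested, and over the whole span 3 were higher and 3 lower, a share near the 50.8% of all genes. Fbp2, a fructose bisphosphatase, rose from 1.16 ± 1.35 copies in oocytes to 50 ± 14.4 in 16-cell embryos, and Gyg, glycogenin, fell from 37.2 ± 23 to 0.546 ± 0.563.

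**Figure D5:**
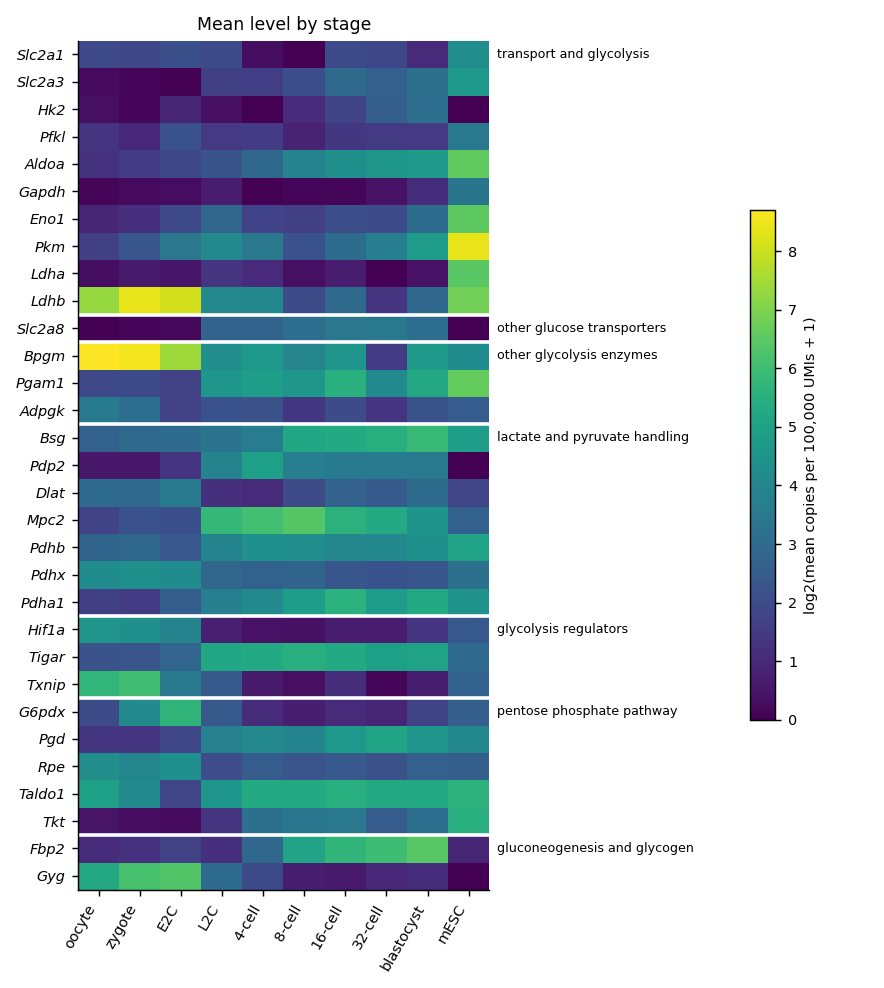
Heat map of the 10 genes and of the genes named from the pathway lists (rows) over the 10 stages (columns), with the colour giving log2 of the stage mean in copies per 100,000 UMIs plus 1. From oocytes to 16-cell embryos the means fall from 159.9 to 7.1 copies for Ldhb and from 413.5 to 22.1 for Bpgm, and those of Aldoa and Pgam1 go from 1.44 to 18.9 and from 2.76 to 44.5.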

How the data were processed

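Full-length cDNA of single cells was read by HIT-scISOseq on the PacBio platform. Consensus reads came from SMRT-Link and their barcodes and UMIs from scISA-Tools. The authors aligned them to mm10 (minimap2), matched them to genes (gffcompare), merged them into isoforms (cDNA_Cupcake), classified these (SQANTI3) and dropped any found in fewer than 5 cells. The gene and isoform tables were deposited as normalized values of the CPM kind, scaled to 100000 UMIs of a cell. Some columns are recorded as a score, but the authors gave them on that scale too. Run 4 was deposited as UMI counts of 49271 isoforms. All non-zero values (100%) were whole UMIs within 0.1, and the recovered UMIs served for depth, intervals and count models. The labels name the runs and the cells' stage and embryo come from the column names of the tables, which do not say whether a number was used again in another run. Where nothing says that samples came from separate animals, p-values measure the spread between these embryos.

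Stages were compared with limma 3.58.1 (trend, array weights) in R 4.3.3 on log2(value + 1) over embryo means. Array weights had been chosen in earlier work on these data after unweighted results were seen. The count design of the study's edgeR was replaced because the values are normalized; edgeR 4.0.16 and DESeq2 1.42.0 on recovered UMIs were alternatives. Benjamini-Hochberg adjustment ran over all features tested. Isoform switches used limma on the arcsine square root of shares, called where the gene's adjusted p was below 0.01 and that of the isoform below 0.05. Shares used exact two-sided permutation tests (scipy 1.17.1, Python 3.11.15) and exact Clopper-Pearson intervals, which cover counting error only. Copies of members were searched with blastn 2.17.0 in GENCODE M21 transcripts. The limma fit of genes was tried on simulated data, and that of isoform switches at the oocyte to zygote step only. The edgeR, DESeq2 and run-covariate fits were not simulated. The members and lists were chosen with earlier results of these data known. The genes named beyond them were, per list and comparison, at most 3 rises and 3 falls by size among called genes at 10 or more copies, and the 3 most alike genes for Ldhb, Ldha and Slc2a1; the text gives some of these, chosen after their values were seen, and Hk1, Pfkm and Pfkp for context.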

Additional observations from a re-analysis of the deposited data

Results flagged for a closer look

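Among 54 groups of 4 to 10 embryos, 9 held an embryo farther from the rest than Dixon's limit for its size. For normal values of equal precision, chance would flag about 1 in 20 groups. These values hold zeros and come from embryos of unequal depth, so that rate need not hold, and the count is no measure of excess. Ldhb in oocyte 6 stood at 447.4 copies (1074 UMIs), next to 150.1 for the second highest. It is the only oocyte of run 2, and the share of run and oocyte in this value was not tested. Oocyte 7 stood apart for Aldoa, at 4.57 copies (9 UMIs), and for Eno1, at 3.55 (7 UMIs). Zygote 6 held 5.58 copies of Eno1 (18 UMIs), next to 1.28. E2C embryo 5 held 7.01 copies of Eno1 (7 UMIs), and E2C embryo 3 held 2.04 copies of Hk2 (4 UMIs). L2C embryo 1, a single cell with the fewest UMIs of all 43 embryos, stood apart for Slc2a1, at 11.1 copies (2 UMIs), and for Ldha, at 5.56 (1 UMI). In 4-cell embryo 1, Slc2a3 was at 6.93 copies (7 UMIs), next to 1.52.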

How the results depend on the processing

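The limma comparison made 13 calls for the 10 genes. With a pseudocount of 5 there were 5, and with DESeq2 on the recovered UMIs 8. Only 5 members (Slc2a3, Aldoa, Eno1, Pkm and Ldhb) passed the filter of DESeq2 and edgeR, and limma made 10 calls for these. The other alternatives stayed within 1.5 times, and leaving out 1 embryo gave 12 to 15. The embryos left out in turn were all those of E2C, 4-cell, 8-cell and 16-cell and L2C embryo 1 (19 in all). No single oocyte or zygote and no other L2C embryo was left out in the fits. Calls were gained without 4-cell embryo 1 (Slc2a3 1.20 and Pkm -1.56 from 4-cell to 8-cell), without 8-cell embryo 2 (Hk2 1.22 at that step), without 8-cell embryo 4 or 16-cell embryos 3 or 4 (Hk2 1.01 to 1.06 from 8-cell to 16-cell) and without 16-cell embryo 2 (Ldhb 1.27 at that step). Of the 13, 4 held under every alternative that gave a value (Aldoa, Slc2a3 and Ldhb from oocyte to 16-cell, and Ldhb from E2C to L2C), 9 were lost under at least 1, 11 other values passed under at least 1, and 0 called values changed direction. Eno1 from oocyte to 16-cell was lost in 7 of 28, among them without 16-cell embryo 2 (0.85 against 1.13), and Ldhb from oocyte to zygote in 2 of 29. The Ldha share from E2C to L2C ran from 3.72 to 11.5 percentage points over these, and as a log2 ratio gave 4.71 (adjusted p = 0.026). Member isoforms called were 17, and 15 to 18 over these; switches stayed at 0. Leaving out L2C embryo 1, oocyte 7 (for the Ldha share) or the run 2 eggs was chosen after seeing the data. The share of higher calls from zygote to E2C was 62.2%, against 40.8% with edgeR, from 4-cell to 8-cell 29.8% against 50.9%, and from 8-cell to 16-cell 56.5% against 74.7%; the cause was not tested. edgeR moved the median of all genes from oocyte to 16-cell to 0.25 in place of 0.04, and DESeq2 to -0.18. No paired analysis was possible because embryo numbers name embryos within a stage and pair none across stages. Depth limits the low genes, since 1 UMI in a 16-cell blastomere was worth a median of 3.08 copies.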
